A study of Mus musculus with 21 samples.

Results

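The 10 genes Pparg, Cebpa, Cebpb, Adipoq, Lpl, Fabp4, Cd36, Plin1, Cfd and Car3 are genes of the adipocyte program. They were chosen by name for their known place in it, but with earlier results of these data known. All 10 were found among the 26852 mouse genes of the deposited table. Adipocytes of the bone marrow arise from mesenchymal progenitors that can also form bone. C/EBPβ acts early in that conversion and is followed by PPARγ and C/EBPα, which sustain each other's expression and switch on genes for the uptake, storage and secretion of lipids and hormones. In marrow, reticular stromal cells rich in Cxcl12 already express part of this program, Adipoq included, without storing fat in droplets the way a mature adipocyte does.

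The study put human acute myeloid leukemia cells into mice and measured RNA in stromal cells sorted from the bone marrow. The 21 libraries used here come from mesenchymal cells with a low Nestin reporter signal (Nes-low). The leukemia lines, HL60 and ML1, secreted the cell-penetrating red protein sLP-mCherry, and stromal cells that had taken it up were sorted as mCherry-positive (ch+) and those without it as mCherry-negative (ch-). The questions are how far the program differs from marrow without leukemia, between labelled and unlabelled cells of the early stage, and between the early and the late stage.

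All mice were Nestin+ NSG animals, which lack mature B, T and NK cells, and none was conditioned before transplantation. The ctrl group (3 libraries) came from unengrafted mice. The early ch- and early ch+ groups (6 libraries each, 3 with HL60 and 3 with ML1) and the late group (6 libraries, 3 with HL60 and 3 with ML1, sorted without regard to mCherry) came from mice given the leukemia cells at an age of 8 to 12 weeks. An age at transplantation does not apply to ctrl mice, and the labels give no other age for them. For all groups the labels name the stage and no day. The study defines the stages by the share of human cells in the marrow, low in early and high in late. The sort rests on the promoter of a Nestin transgene, each leukemia is a single human cell line, and the mice have no adaptive immune response to it. The methods take ch- cells from the same marrows as ch+ cells, but the labels do not match the libraries to mice, so the tests treat these groups as independent. The methods balance the sexes within each cohort, but the labels give no sex, batch or number of pooled mice of a library, so such factors and the groups cannot be told apart. The extraction text of the labels describes a sort of CD31+ endothelial cells, against the tissue label of Nes-low mesenchymal cells, which was followed here. The 3 ML1 late libraries carry the treatment label unengrafted, against their title and their time point. They were used as late, and the pooled late results of the tests are also given without them.

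The values are the authors' regularized log2 values, a normalized read count on the log2 scale in which genes with few reads are drawn towards their mean. The deposited values ran from -2.33 to 22.44. No read counts were analysed here. The methods state a typical yield of reads and not that of each library, so the precision that depth allows is not known for any of them. A gene was tested where its mean was at least 3.32, the log2 of 10, which 12976 genes (48.3%) reached. The test was limma's moderated two-sided test with Benjamini-Hochberg adjustment over those genes, and a gene was called at an adjusted p under 0.1. Differences are log2 fold changes with their standard error (SE), means carry the SD, and individual libraries are named by their replicate number. The pooled fit takes the spread of a gene from all groups, late included. Where the lines part in late, the SE of the early comparisons is therefore wider too. The comparisons against ctrl share the same 3 ctrl libraries, and those against early ch+ or early ch- share these groups too, so their values stand side by side and are not independent.

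The label of the cells was checked against marker lists. The 18 reticular stroma markers, with Cxcl12 the most highly valued, had a summed log2 level in ctrl of 16.49, 16.54 and 16.87. It was below the sum of the osteoblast markers (20.86, 20.99 and 21.29), overlapped that of the chondrocyte markers (16.72, 17.06 and 17.64), and was above that of the endothelial markers (10.38, 10.44 and 10.53). Markers of mature adipocytes were low. Of 12 such markers 11 were in the table and 5 passed the filter, their summed level in ctrl was 8.95, 9.39 and 9.69, and the most abundant of them was Pnpla2, a lipase gene that many tissues express, with a mean of 8.03 over all 21 libraries. The defining markers were near the floor, with a mean of -2.32 for Lep and -1.19 for Pck1, while Plin1, Cidec, Acvr1c and Adrb3 also failed the filter and Retn was not in the table. The libraries are therefore described by their label, Nes-low stromal cells, which hold RNA of several stromal types, and not as adipocytes.

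Divided by transcript length (log2 per kilobase, mean over all 21 libraries), the order of the levels was Car3 (11.81), Lpl (11.11), Adipoq (10.98), Fabp4 (7.17), Pparg (6.85), Cebpa (6.24), Cebpb (4.91), Cd36 (4.09), Cfd (2.05) and Plin1 (1.03). Lpl and Adipoq were neighbours within the spread of their libraries. The order changed with stage. In ctrl the length-corrected level of Car3 (12.83) stood above Lpl (10.62) and Adipoq (10.48), in late HL60 it was level with them (10.91 beside 10.98 and 10.83), and in late ML1 it was below both (8.28 beside 11.00 and 10.21). The length-corrected level of Pparg went the other way, from 5.39 in ctrl, where Fabp4 was above it at 7.29, to 7.41 in late HL60 and 7.33 in late ML1.

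**Figure D1:**
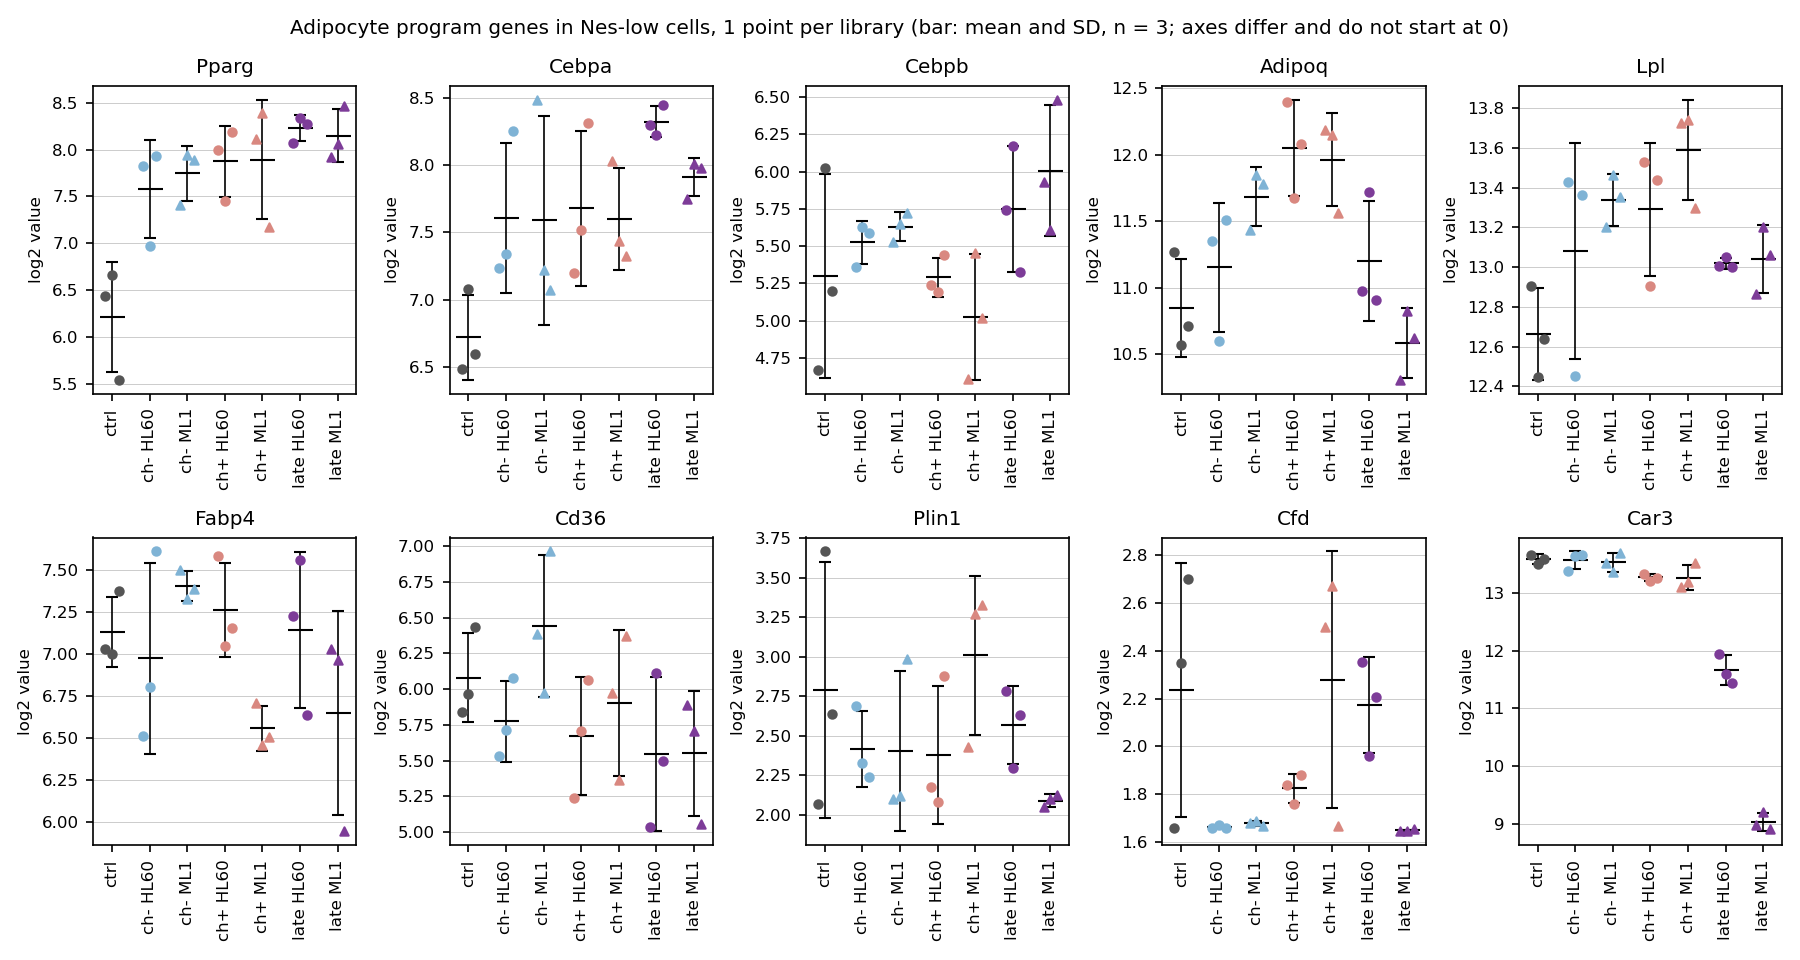
Deposited regularized log2 value (vertical axis) of the 10 genes in the 7 groups (horizontal axis); each point is 1 library and each bar the group mean with its SD. Pparg was above every ctrl library in all leukemic libraries, Adipoq was highest in early ch+, and Car3 was low in late, more so with ML1 (8.91 to 9.20) than with HL60 (11.44 to 11.95).

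Of the 10 genes, 8 passed the filter, and Plin1 and Cfd did not. In late against ctrl limma called 3 of the 8 (Pparg and Cebpa higher, Car3 lower), where 21.5% of all tested genes were called. In early ch+ against ctrl it called 4 of 8 (Pparg, Cebpa, Adipoq and Lpl, all higher), against 6.17% of all tested genes. In early ch- against ctrl it called Pparg alone, 1 of 8, against 1.92%, and without ch- replicate 528 the count was 2. Between early ch+ and early ch- limma called 0 of 8 at an adjusted p under 0.1, against 6.26% of all tested genes, and 1 of 8 had an unadjusted p under 0.05, against 15.4% of all tested genes. The called count was 1 without ch+ replicate 524 or 541 or without ch- replicate 544 or 546. In late against early ch+ it called 4 of 8 (Cebpb higher, and Adipoq, Lpl and Car3 lower), where the background was 19.7%, and the count was 2 without late replicate 581 or ch+ replicate 538. In late against early ch- it called 2 of 8 (Adipoq and Car3, both lower), which is near the background of 22.5% and no result about the set, and the count was 1 without late replicate 581, 582 or 583 or ch- replicate 546. The median log2 fold change of the 8 genes was 0.21 in late, 0.32 in early ch+ and 0.41 in early ch- against ctrl, beside 0.02, 0.01 and 0.01 over all tested genes. It was -0.12 in early ch+ against early ch-, -0.13 in late against early ch+ and -0.24 in late against early ch-, beside -0.02, 0.02 and 0.0007. Without the ML1 late libraries limma called 3 of 8 in late against ctrl beside a background of 12.4%, 2 of 8 in late against early ch+ beside 11.4%, and 1 of 8 in late against early ch- beside 13%, the last no result about the set.

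With the lines apart, HL60 late against ctrl had 3 of 8 called beside a background of 13.7%, and ML1 late against ctrl had 3 of 8 beside 22%, in both lines Pparg, Cebpa and Car3. In early ch+ against ctrl both lines had 3 of 8 called (Pparg, Adipoq and Lpl), beside 5.33% with HL60 and 6.69% with ML1. In early ch- against ctrl HL60 had 1 of 8 (Pparg) beside 1.57%, and this count was 0 without ctrl replicate 375 or ch- replicate 527 or 529 and 2 without ch- replicate 528. ML1 early ch- had 3 of 8 (Pparg, Adipoq and Lpl) beside 2.34%, and 1 without ctrl replicate 374 or 375 or ch- replicate 544 or 546. Between early ch+ and early ch-, HL60 had 1 of 8 (Adipoq) beside 3.92%, and 0 without ch+ replicate 523 or ch- replicate 528. ML1 had 0 of 8 by limma in that comparison, beside 4.25%, and 1 of 8 at an unadjusted p under 0.05, beside 13.8% of all genes. In late against early ch+, HL60 had 2 of 8 (Adipoq and Car3) beside 10.2%, and 1 without late replicate 397 or 399 or ch+ replicate 523, while ML1 had 3 of 8 (Adipoq, Lpl and Car3) beside 16.9%. The lines were also compared directly. HL60 against ML1 in late gave 1 of 8 (Car3) beside 4.09%. In early ch+ it gave 0 of 8 by limma, beside 0.0154%, and 1 of 8 at an unadjusted p under 0.05, beside 7.61% of all genes. For early ch- the count was 0 of 8, beside 0.0539%, and 1 of 8 unadjusted, beside 6.82%.

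The summed values were lower in late, and few genes carried the sum. With the values converted from log2 and summed over genes, the ctrl libraries held 91.5%, 98.8% and 109.7% of their own mean, the early ones 86.4% to 113.7% of it, and the late ones 64.8%, 67.2% and 69.6% with HL60 and 56%, 56.5% and 57.5% with ML1. A single ribosomal RNA gene, CT010467.1, held 29.72% to 34.24% of the sum in ctrl and 16.81% to 26.17% in late. The 10 genes with the highest mean, Col1a1 among them, held 55.53%, 60.25% and 61.02% in ctrl, 42.58%, 43.72% and 45.16% in late HL60 and 32.08%, 33.73% and 34.79% in late ML1. Without these 10 genes the sum was 94.1%, 99.37% and 106.54% of its ctrl mean in ctrl, 93.09% to 97.55% in the early libraries, 90.9%, 92.4% and 93.2% in late HL60 and 90.68%, 91.56% and 93.7% in late ML1. So the lower sum in late lay mostly in these genes. Rescaling every library to the mean total moved the median of all genes in late against ctrl from 0.02 to 0.71, and raised the genes called from 2795 to 8302. It adds the same constant to every gene, 0.69 in late against ctrl, 0.62 in late against early ch+ and 0.77 in late against early ch-, but only 0.08 in early ch+ and -0.07 in early ch- against ctrl. Relative to the shifted median the late change against ctrl was 1.95 for Pparg, 1.38 for Cebpa, 0.56 for Cebpb, 0.03 for Adipoq, 0.35 for Lpl, -0.26 for Fabp4, -0.55 for Cd36 and -3.26 for Car3. A gene with a late value against ctrl between -0.69 and 0 turns positive when rescaled, and so does a list median in that range. Rescaled instead to the sum without the 10 highest genes, called the reduced sum below, the constant was 0.12 in late against ctrl, with a median of 0.14 and 2941 genes called (22.7%). It was 0.08 in early ch+ and 0.07 in early ch- against ctrl, 0.04 in late against early ch+ and 0.05 in late against early ch-. The values marked rescaled below use the full sum and so follow mostly the highest genes. In such bulk libraries fewer cells of a type and less RNA per cell cannot be told apart.

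Pparg (ENSMUSG00000000440, GRCm38 chr6:115360951-115490399, plus strand) encodes PPARγ, the nuclear receptor on which adipocyte formation depends. Its log2 value was 5.55, 6.44 and 6.66 in the ctrl libraries. In early ch- it was 6.97, 7.83 and 7.93 with HL60 and 7.41, 7.89 and 7.95 with ML1, and in early ch+ 7.45, 7.99 and 8.18 with HL60 and 7.18, 8.11 and 8.39 with ML1. In late it was 8.07, 8.28 and 8.34 with HL60 and 7.92, 8.06 and 8.46 with ML1. Each of the 18 leukemic libraries lay above all ctrl libraries, and the leukemic groups of a line overlapped one another, except that late HL60 lay above early ch- HL60. The log2 fold change against ctrl was 1.45 in early ch- (SE 0.27, adjusted p = 0.00314, higher in 6 of 6 libraries). It was 1.67 in early ch+ (SE 0.27, adjusted p = 0.000221, 6 of 6) and 1.97 in late (SE 0.27, adjusted p = 4.27e-06, 6 of 6). Without the ML1 libraries the late value was 2.01, and it was called there too. By line, early ch-, early ch+ and late gave 1.36, 1.66 and 2.01 with HL60 and 1.53, 1.68 and 1.93 with ML1, all called and each with 3 of 3 libraries above ctrl. The early ch- call with HL60 was lost without ctrl replicate 375 (1.03), ch- replicate 527 (1.24) or ch- replicate 529 (1.19). No difference between leukemic groups was called, at 0.22 in early ch+ against early ch-, 0.30 in late against early ch+ and 0.53 in late against early ch- (adjusted p = 0.108, above the ch- mean in 6 of 6 libraries). The last was called without ch- replicate 529 (0.58) or 544 (0.58), when quantile normalized (0.55), with sample weights (0.48), with these groups fitted alone (0.53) or with the reduced sum (0.58). Rescaled, it was called at 1.29 and late against early ch+ at 0.92 (0.82 with HL60 and 1.02 with ML1, both called). With the ML1 late libraries left out, the values from early ch+ and early ch- to late were 0.35 and 0.57, not called. The gene overlaps Gm44079, whose mean log2 value was -1.79.

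Cebpa (ENSMUSG00000034957, chr7:35119293-35121928, plus strand, a single exon) encodes C/EBPα, which works with PPARγ to establish and hold the adipocyte state and also serves in myeloid cells. Its log2 value in ctrl was 6.49, 6.60 and 7.08. In early ch- it was 7.24, 7.34 and 8.25 with HL60 and 7.07, 7.22 and 8.48 with ML1, and in early ch+ 7.20, 7.52 and 8.31 with HL60 and 7.32, 7.44 and 8.03 with ML1. The late libraries had 8.22, 8.29 and 8.45 with HL60 and 7.75, 7.98 and 8.01 with ML1. All leukemic groups lay above ctrl except early ch- with ML1, where 1 library reached into the ctrl range, and late HL60 lay wholly above late ML1. Against ctrl it rose by 1.39 in late (SE 0.29, adjusted p = 0.000792, 6 of 6 libraries), by 1.60 with HL60 (adjusted p = 0.00138, 3 of 3) and by 1.19 with ML1 (adjusted p = 0.0119, 3 of 3). The difference between the lines in late, 0.41, was not called (adjusted p = 0.827, 3 of 3 HL60 libraries above all ML1 libraries). In early ch+ it rose by 0.92 (SE 0.29, adjusted p = 0.0734, 6 of 6), a call that was lost without ctrl replicate 373 (0.80), ctrl replicate 375 (0.86), ch+ replicate 525 (0.78) or ch+ replicate 538 (0.84), and also without the filter, without limma's mean-variance trend or with sample weights (0.95). By line the early ch+ values, 0.96 with HL60 and 0.88 with ML1, missed the threshold, and the first passed it without ch+ replicate 523 (1.2) or rescaled (1.06). In early ch- the value was 0.88 and not called (adjusted p = 0.165, 6 of 6 libraries above the ctrl mean). Late stood 0.48 above early ch+ and 0.52 above early ch-, neither called. The former was called without ch+ replicate 525 (0.61) and the latter without ch- replicate 529 (0.65) or 543 (0.69) or with sample weights (0.58), and both were called when rescaled (1.09 and 1.28), as was late against early ch+ in each line (1.11 with HL60 and 1.07 with ML1). When the ML1 late libraries were dropped, they were 0.68 and 0.72, not called, and late against ctrl was 1.60, called. The gene overlaps Gm45091, whose mean was -0.62.

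Cebpb (ENSMUSG00000056501, chr2:167688915-167690418, plus strand, a single exon) encodes C/EBPβ, the early factor of the cascade, which also answers to inflammatory signals. Its log2 value was 4.67, 5.20 and 6.02 in ctrl, a range that covered most leukemic libraries. In early ch- the lowest, median and highest values were 5.36, 5.61 and 5.72, in early ch+ 4.61, 5.22 and 5.45, and in late 5.32, 5.84 and 6.48. Against ctrl none of the pooled differences was called, with 0.58 in late (0.45 without the ML1 late libraries), -0.14 in early ch+ and 0.28 in early ch-. The late value was called without ctrl replicate 374 (0.94) and when rescaled (1.27), and fell to 0.26 without ctrl replicate 373. The early ch+ value turned positive without ctrl replicate 374 (0.23), and the early ch- value turned negative without ctrl replicate 373 (-0.03). Late against early ch+ was called at 0.72 (SE 0.26, adjusted p = 0.064), with 5 of 6 late libraries above every ch+ library. That call was lost without late replicate 581 (0.71), 583 (0.60) or 398 (0.66) or ch+ replicate 538 (0.61) or 541 (0.69), and without the ML1 late libraries together (0.59). By line, late against ctrl was 0.45 with HL60 and 0.71 with ML1. Without ctrl replicate 374 these values were 0.81, not called, and 1.07, called. Without ctrl replicate 373 they were 0.13 and 0.40, neither called. Late against early ch+ in ML1 was 0.98 (adjusted p = 0.106, 3 of 3 libraries above the ch+ mean) and was called without late replicate 582 (1.18) or ch+ replicate 539 (1.19). Late against early ch- was 0.30, and 0.17 without the ML1 late libraries, neither called. Rescaled, it was called at 1.07, late against ctrl at 1.02 with HL60 and 1.53 with ML1, and late against early ch+ at 0.93 with HL60 and 1.74 with ML1. Tmem189 overlaps it on the opposite strand with a mean of 7.53, and per the methods the authors' counting was by strand. Whether Tmem189 reads enter the Cebpb value was not tested.

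Adipoq (ENSMUSG00000022878, chr16:23146536-23158028, plus strand) encodes adiponectin, the hormone that adipocytes and marrow reticular cells secrete. Its log2 value was 10.57, 10.71 and 11.26 in ctrl. In early ch- it was 10.60, 11.35 and 11.51 with HL60 and 11.43, 11.78 and 11.84 with ML1, and in early ch+ 11.67, 12.08 and 12.39 with HL60 and 11.56, 12.14 and 12.18 with ML1. The late libraries had 10.91, 10.97 and 11.72 with HL60 and 10.31, 10.62 and 10.83 with ML1. Early ch+ lay above ctrl in both lines, and late lay mostly within the ctrl range or below it. Against ctrl Adipoq rose by 1.16 in early ch+ (SE 0.24, adjusted p = 0.00368, 6 of 6 libraries above every ctrl library), by 1.2 with HL60 (adjusted p = 0.00214, 3 of 3) and by 1.11 with ML1 (adjusted p = 0.00333, 3 of 3). In early ch- the pooled value was 0.57 (adjusted p = 0.341, not called). There HL60 gave 0.30, not called, and ML1 0.84 (adjusted p = 0.0741, 3 of 3), a call lost without ctrl replicate 374 (0.69) or 375 (0.77) or ch- replicate 544 (0.76) or 546 (0.79) and when rescaled (0.71). In late the value was 0.05 (adjusted p = 0.938), and it was below 0 without ctrl replicate 374 (-0.10), ctrl replicate 375 (-0.02) or late replicate 398 (-0.12) and 0.35 without the ML1 late libraries. By line the late values were 0.35 with HL60 and -0.26 with ML1, neither called, so the pooled value averages lines that lay apart. With single libraries left out, the HL60 value ranged from 0.09 (without late replicate 398) to 0.56. The ML1 value ranged from -0.40 to -0.05. The difference of 0.62 between the lines was not called either (adjusted p = 0.221, 3 of 3 HL60 libraries above every ML1 library). It was 0.36 without late replicate 398. Rescaled, Adipoq in late was called at 0.74 pooled, 0.92 with HL60 and 0.55 with ML1.

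The labelled cells of the early stage had more Adipoq than the unlabelled ones by 0.59 (SE 0.20, adjusted p = 0.101, 6 of 6 libraries above the ch- mean), which missed the threshold. It was called without ch+ replicate 524 (0.65) or 541 (0.68) or ch- replicate 544 (0.67) or 546 (0.66), when rescaled (0.74) or with the reduced sum (0.60), and, at the same value, with a filter at a mean of 5, with these groups fitted alone, with 7 groups averaged over the lines or without the ML1 late libraries. With HL60 the difference was 0.90 (SE 0.24, adjusted p = 0.0301, 3 of 3 above every ch- library) and was lost without ch+ replicate 523 (0.72) or ch- replicate 528 (0.62). With ML1 it was 0.28 and not called, and whether the lines differ in this difference was not tested. Late against early ch+, Adipoq fell by 1.11 (SE 0.20, adjusted p = 0.000116), with 5 of 6 late libraries below every ch+ library, and gave -0.80 without the ML1 late libraries, where it was called as well. By line the change was -0.85 with HL60 (adjusted p = 0.0211, 3 of 3 below the ch+ mean) and -1.38 with ML1 (adjusted p = 6.38e-05, 3 of 3). The HL60 call was lost without late replicate 397 (-0.73) or 399 (-0.70) or ch+ replicate 523 (-0.67), and when rescaled (-0.38). Late against early ch- was -0.52 (SE 0.20, adjusted p = 0.069, 5 of 6 below the ch- mean), which turned to 0.24 when rescaled and was -0.47 and not called with the reduced sum. This call was lost without late replicate 581 (-0.41), 582 (-0.51) or 583 (-0.47), without ch- replicate 529 (-0.51), 543 (-0.52), 544 (-0.44) or 546 (-0.45), without the ML1 late libraries (-0.22), and without the filter or the mean-variance trend.

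Lpl (ENSMUSG00000015568, chr8:68880491-68907448, plus strand) encodes lipoprotein lipase, the secreted enzyme that frees fatty acids from circulating triglycerides. Its log2 value was 12.45, 12.64 and 12.91 in ctrl. In early ch- it was 12.45, 13.36 and 13.43 with HL60 and 13.20, 13.35 and 13.46 with ML1, and in early ch+ 12.91, 13.44 and 13.53 with HL60 and 13.30, 13.73 and 13.74 with ML1. In late it was 13.00, 13.01 and 13.05 with HL60 and 12.86, 13.06 and 13.20 with ML1. HL60 ch- replicate 528 was as low as the lowest ctrl library, far from the other 5 of its group, and the late libraries lay close together just above or within the ctrl range. Against ctrl Lpl rose by 0.78 in early ch+ (SE 0.18, adjusted p = 0.00944, 5 of 6 above every ctrl library). With ML1 it rose by 0.92 (adjusted p = 0.00225, 3 of 3) and with HL60 by 0.63 (adjusted p = 0.0599, 3 of 3 above the ctrl mean), and the HL60 call was lost without ctrl replicate 374 (0.52) or 375 (0.61) or ch+ replicate 523 (0.51) or 525 (0.55). In early ch- the pooled value, 0.55, was not called (adjusted p = 0.166), but it was without ch- replicate 528 (0.70), with the reduced sum (0.61) and, at the same value, with 7 groups averaged over the lines. The HL60 value, 0.42, likewise passed without that library (0.73). The ML1 value in early ch- was 0.67 (adjusted p = 0.0711, 3 of 3), lost without ctrl replicate 374 (0.57) or 375 (0.66) or ch- replicate 544 (0.61) or 546 (0.67) and when rescaled (0.55). In late it was 0.37 and not called (adjusted p = 0.187, 6 of 6 above the ctrl mean), with 0.36 for HL60, the same without the ML1 late libraries, and 0.38 for ML1. When rescaled these were called at 1.06, 0.93 and 1.19, and the pooled value also with the reduced sum (0.48) or with late and ctrl fitted alone and the ML1 value with ctrl and ML1 fitted alone.

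Late against early ch+, Lpl was lower at -0.41 (SE 0.15, adjusted p = 0.0589, 6 of 6 below the ch+ mean but 1 of 6 below every ch+ library), and this turned to 0.21 when rescaled. The call was lost without late replicate 581 (-0.38) or ch+ replicate 523 (-0.39), 538 (-0.35) or 539 (-0.35), without the ML1 late libraries (-0.42), and without the filter or the mean-variance trend. In ML1 the same difference was -0.55 (adjusted p = 0.0501, 3 of 3 below every ch+ library), again 0.21 when rescaled and lost without late replicate 581 (-0.46) or 583 (-0.56) or ch+ replicate 538 (-0.48) or 539 (-0.47). In HL60 it was -0.27, not called, and 0.20 when rescaled. Late against early ch- was -0.18, called without ch- replicate 528 (-0.33), -0.19 and not called without the ML1 late libraries, and 0.59 and called in the other direction when rescaled.

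Fabp4 (ENSMUSG00000062515, chr3:10204088-10208576, minus strand) encodes the fatty acid binding protein of adipocytes and macrophages, and Cd36 (ENSMUSG00000002944, chr5:17781690-17888801, minus strand) a fatty acid translocase at the cell surface. Fabp4 had log2 values of 7, 7.03 and 7.37 in ctrl, and over the pooled groups the lowest, median and highest were 6.51, 7.36 and 7.61 in early ch-, 6.45, 6.88 and 7.58 in early ch+ and 5.94, 7 and 7.56 in late. Cd36 had 5.84, 5.97 and 6.44 in ctrl, with 5.53, 6.03 and 6.96 in early ch-, 5.24, 5.84 and 6.37 in early ch+ and 5.03, 5.60 and 6.11 in late. These groups all overlapped ctrl. Against ctrl Fabp4 was -0.24 in late, -0.22 in early ch+ and 0.06 in early ch-, and Cd36 -0.53, -0.29 and 0.03, none called, and rescaling turned the late values to 0.45 and 0.16. From early ch+ and early ch- to late, Fabp4 was -0.02 and -0.30, not called, which became 0.60 and 0.47 and called when rescaled, while Cd36 was -0.24 and -0.56, which became 0.38 and 0.21, not called either way. Within ML1, Fabp4 in late against early ch+ was called when rescaled (0.85). Without the ML1 late libraries these values were 0.23 and -0.05 for Fabp4 and -0.24 and -0.56 for Cd36, none called. Without the ML1 libraries the late values were 0.01 for Fabp4 and -0.53 for Cd36. The lines parted for Fabp4 in early ch+, with 6.45, 6.51 and 6.71 in ML1 and 7.05, 7.16 and 7.58 in HL60. These do not overlap, yet their difference of 0.71 was not called (adjusted p = 0.629, 3 of 3 HL60 libraries above every ML1 library). Within ML1, Fabp4 in early ch+ also lay below all ch- and all ctrl libraries, at -0.85 (adjusted p = 0.207) and -0.58 (adjusted p = 0.399), which were not called.

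Plin1 (ENSMUSG00000030546, chr7:79720218-79732903, minus strand) encodes the coat protein perilipin of the lipid droplet, and Cfd (ENSMUSG00000061780, chr10:79890853-79892655, plus strand) adipsin, a complement protease secreted by adipocytes. Both lay under the filter, where regularization narrows all differences. Plin1 had 2.07, 2.64 and 3.66 in ctrl and 2.05 to 3.33 elsewhere. Cfd had 1.66, 2.35 and 2.70 in ctrl and 1.65 to 2.67 elsewhere. All groups overlapped ctrl except that Cfd in late ML1 (1.65 in all 3 libraries) lay just under the lowest ctrl library. When all genes were tested without the filter, limma gave -0.46 for Plin1 and -0.33 for Cfd in late, -0.10 and -0.18 in early ch+, and -0.38 and -0.57 in early ch-, none called, and rescaling, which adds 0.69, turns the late values positive.

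Car3 (ENSMUSG00000027559, chr3:14863512-14872523, plus strand) encodes carbonic anhydrase 3, a cytosolic enzyme abundant in adipocytes and slow skeletal muscle. Its log2 value was 13.50, 13.59 and 13.66 in ctrl. In early ch- it was 13.38, 13.64 and 13.65 with HL60 and 13.36, 13.51 and 13.69 with ML1, and in early ch+ 13.21, 13.26 and 13.33 with HL60 and 13.09, 13.18 and 13.51 with ML1. The late libraries had 11.44, 11.60 and 11.95 with HL60 and 8.91, 8.98 and 9.20 with ML1. The early groups were close to ctrl, with early ch+ HL60 just below every ctrl library, and the late libraries fell into 2 groups by line, far apart and both below all others. Against ctrl Car3 fell by 3.24 in late (SE 0.44, adjusted p = 3.7e-06, 6 of 6 libraries below every ctrl library). By line the change was -1.92 with HL60 (SE 0.14, adjusted p = 4.61e-11, 3 of 3) and -4.55 with ML1 (SE 0.14, adjusted p = 4.99e-21, 3 of 3). The pooled fall without the ML1 late libraries was 1.92 as well, and it was called. HL60 against ML1 in late differed by 2.63 (SE 0.14, adjusted p = 2.38e-14, 3 of 3 HL60 libraries above every ML1 library). From early ch+ to late the change was -2.92 (adjusted p = 4.82e-07, 6 of 6 lower), made up of -1.61 with HL60 (adjusted p = 1.27e-09, 3 of 3) and -4.23 with ML1 (adjusted p = 5.14e-20, 3 of 3), and from early ch- to late it was -3.19 (adjusted p = 9.46e-08, 6 of 6). With the ML1 late libraries left out, these pooled changes were -1.60 and -1.88, both called. None of these signs changed when rescaled. In early ch+ the value against ctrl was -0.32 in the pooled libraries (SE 0.44, adjusted p = 0.778, 6 of 6 below the ctrl mean), not called. That SE holds the gap between the lines in late, and without the ML1 late libraries the adjusted p was 0.114. In each line the early ch+ value was -0.32 as well, with an SE of 0.14 (adjusted p = 0.24 with HL60 and 0.22 with ML1). Neither was called, except that ML1 passed without ch+ replicate 541 (-0.44). In early ch- the pooled value was -0.04 (adjusted p = 0.982). Early ch+ against early ch- was -0.28, not called, but called with these groups fitted alone, with 7 groups averaged over the lines or without the ML1 late libraries, at the same value.

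**Figure D2:**
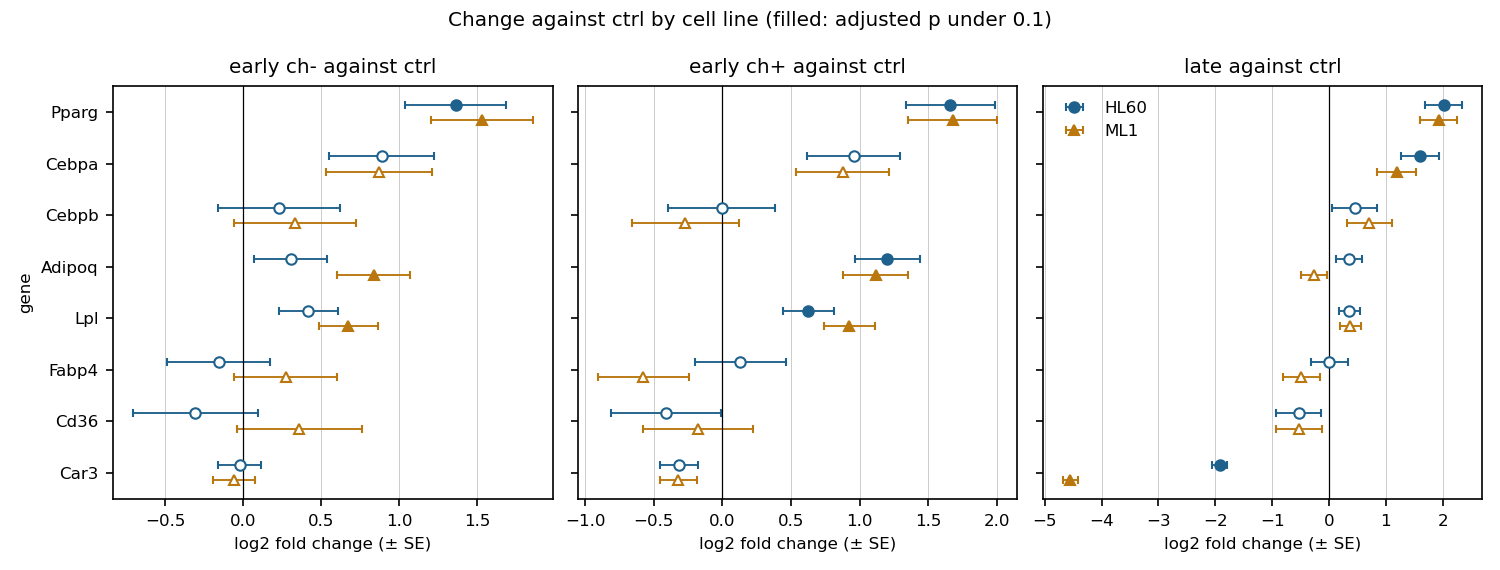
Log2 fold change against ctrl (horizontal axis, bars are SE) of the 8 tested genes (vertical axis) in early ch-, early ch+ and late, with HL60 as circles, ML1 as triangles and called values filled. Pparg lay between 1.36 and 2.01 in every group, Adipoq rose in early ch+ in both lines (1.2 and 1.11), and Car3 in late was -1.92 with HL60 and -4.55 with ML1.

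The gene closest to Adipoq over the 21 libraries, by the root mean square difference of mean-centred log2 values among 12975 other tested genes, was Chrdl1 (0.297), followed by Abi3bp (0.307), Sgcd (0.349), Lpl (0.375), Islr (0.393) and Col6a5 (0.415). Lpl, at rank 4, was the nearest of the 10 genes. Since these genes were picked for their likeness to Adipoq over the same libraries, their changes follow largely from the choice and are given without a test. Against ctrl in early ch+ they were 0.82 for Chrdl1, 0.57 for Abi3bp, 0.45 for Sgcd, 0.59 for Islr and 0.96 for Col6a5. From early ch+ to late they were -1.10, -0.73, -0.61, -0.65 and -0.64 in that order, and -0.81, -0.57, -0.37, -0.30 and -0.71 without the ML1 late libraries, and rescaling, which adds 0.62, turns that of Sgcd positive. For Car3, a gene singled out after its values were seen, the nearest genes were Col11a1 (0.201), Bglap3 (0.225), Col11a2 (0.234), Phospho1 (0.304) and Col22a1 (0.312), with late changes of -3.31, -3.46, -3.55, -3.46 and -3.22 that likewise follow from the choice, and of -2.20, -2.16, -2.26, -2.02 and -1.99 without the ML1 late libraries. The nearest of the other 9 genes to Car3 was Adipoq, at 1.37 and rank 1185.

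Other genes of the pathway were taken from 6 lists, whose counts are to be read beside the share of all tested genes called, which was 21.5% in late, 6.17% in early ch+ and 1.92% in early ch-, and 12.4% in late without the ML1 late libraries. At an unadjusted p under 0.05 these shares were 27.6%, 16.8%, 11.9% and 20%. Among 20 adipogenic regulators, all tested, 6 were higher and 2 lower in late (40% called), with a median of 0.07 beside 0.02 over all genes. When the ML1 late libraries were dropped, 2 were higher and 1 lower (15%, near the background), with a median of 0.16. Ebf3, a transcription factor of marrow stroma, rose by 1.66, and Klf9 by 1.03, and the coactivator gene Ppargc1a was lower at -1.95. Without the ML1 late libraries these were 1.5, 0.94 and -1.82, all called. Nr1h3, which encodes the sterol receptor LXRα, was called at 1.16, but not without ctrl replicate 373 (0.57), ctrl replicate 374 (1.37), late replicate 581 (1.06), 582 (1.16), 583 (1.14), 398 (1.15) or 399 (1.2), nor without the ML1 late libraries (0.96), when quantile normalized (1.13), or without the filter or the mean-variance trend. Srebf1, a factor of lipid synthesis, was called at -0.76, but not without the ML1 late libraries (-0.67), and when rescaled little was left of it (-0.07, not called). In early ch+ 3 regulators were higher and 0 lower (15%), median 0.09, and these were Ebf3 (0.88, lost without ctrl replicate 374, at 0.68), Foxo1 (0.81) and Ebf1 (0.65). In early ch- limma called 0, with 3 at an unadjusted p under 0.05.

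Of 15 inhibitors of adipogenesis 11 were tested, and in late 1 was higher and 5 lower (54.5% called), median -0.17, and without the ML1 late libraries 1 was higher and 3 lower (36.4%), median -0.22. Sox9, a cartilage factor that the chondrocyte list also holds, was lower at -2.24, Trib2 at -1.53 and Twist1 at -1.37, and Hes1 was higher at 0.72, which was not called without ctrl replicate 373 (0.43). In late without the ML1 libraries these were -1.83, -1.29, -0.89 and 0.90, all called. In early ch+ Sox9 alone was called, at -2.36 (9.09% of the tested, near the background), and in early ch- 1 inhibitor, Klf2, at 0.79, named here after its value was seen.

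Of 16 genes of the lipid droplet and of lipolysis 15 were in the table and 12 tested. In late 0 were higher and 4 lower (33.3% called), median -0.04, among them the droplet protein gene Plin4 (-1.62) and the lipase genes Mgll (-1.35) and Pnpla2 (-0.70). With the ML1 late libraries left out, these were -1.13, -0.68 and -0.42, and limma called 0 genes of the list (1 unadjusted), median 0.05. The call of Pnpla2 was also lost without ctrl replicate 373 (-0.72) or 374 (-0.53) or late replicate 582 (-0.66) or 583 (-0.55), without the filter, or with the reduced sum (-0.58). When rescaled Pnpla2 was near 0 (-0.0086) and Mgll was at -0.66, neither called. In early ch+ Plin4 alone was called, at -1.99 (8.33%, near the background), and in early ch- limma called 0, with 2 at an unadjusted p under 0.05. Plin4 and Pnpla2 are also in the mature adipocyte list.

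Of 21 genes of fatty acid uptake and triglyceride synthesis 18 were tested, and in late 2 were higher and 2 lower, median 0.07. These 22.2% are near the background, and no result about the list. When the ML1 late libraries were dropped, 0 were higher and 1 lower (5.56%), median -0.02. Angptl4, an inhibitor of lipoprotein lipase, was at 1.15, while the receptor gene Vldlr was at -1.74 and the binding protein gene Fabp3 at -1.27. Without these libraries Vldlr (-1.04) was called and Angptl4 (0.76) and Fabp3 (-0.87) were not, and Fabp3 was also lost without ctrl replicate 374 (-1.13) and when rescaled (-0.57). In early ch+ limma called 0 of these genes, with 0 at an unadjusted p under 0.05. Over all 21 libraries Angptl4 had the highest mean value of the list (10.64). In early ch- it called 0, with 1 unadjusted.

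Of 19 adipokines and hormone receptors 17 were in the table and 14 tested, and in late 4 were higher and 2 lower (42.9% called), median 0.27, and without the ML1 late libraries 4 higher and 3 lower (50%), median 0.37. The leptin receptor gene Lepr rose by 1.97, the chemerin gene Rarres2 by 1.73 and the adiponectin receptor gene Adipor2 by 1.05. Cpe, a peptide-processing enzyme gene, was lower at -2.70 and Irs1 at -0.53, the latter turning to 0.16 and not called when rescaled. Without the ML1 late libraries these were 1.79, 1.60, 1.16, -1.52 and -0.56, all called. In early ch+ 3 were higher and 0 lower (21.4%), median 0.17. Of these, Cdh13 (0.90) lost the call without ctrl replicate 373 (0.99) or 375 (0.65) or ch+ replicate 524 (0.85), 538 (0.90), 539 (0.88) or 541 (0.78), and with sample weights (0.81). Lepr (0.67) lost it without ctrl replicate 374 (0.49) or 375 (0.62), and Agt (0.62) without ctrl replicate 374 (0.52) or 375 (0.63) or ch+ replicate 523 (0.53), 538 (0.60) or 539 (0.60), and with sample weights (0.63). All 3 calls were also lost without the filter or the mean-variance trend. In early ch- limma called 0, with 3 unadjusted. Of 10 thermogenic genes 4 were tested, with 0 higher and 2 lower in late, median -0.26 (without the ML1 late libraries 0 called by limma, 1 unadjusted, median -0.08), and 1 lower in early ch+, median -0.21. The potassium channel gene Kcnk3 was at -1.06 in late and -3.02 in early ch+, and its late call was lost without ctrl replicate 374 (-0.79), late replicate 582 (-0.80), the ML1 late libraries (-0.92) or the filter, and when rescaled (-0.37). Dio2 was at -1 in late, lost without ctrl replicate 374 (-1.10) or 375 (-0.69), late replicate 581 (-0.83), 582 (-0.90), 583 (-0.92) or 397 (-1.02), the ML1 late libraries (-0.41) or the filter, with sample weights, with late and ctrl fitted alone, with the reduced sum (-0.88) and when rescaled (-0.31). At an adjusted p under 0.05 Nr1h3, Pnpla2, Kcnk3 and Dio2 in late and Cdh13 and Agt in early ch+ were not called. In early ch- limma called 0 thermogenic genes, with 0 unadjusted.

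Marker lists of other cell types were read beside these values. The sort was set up to remove some of them, since human and mouse hematopoietic cells were taken out on magnetic beads for CD45 and the rest was stained for CD45, Ter119 and CD31. The counts stand beside the same background of 21.5%, 6.17% and 1.92% of all tested genes, or 12.4% for late without the ML1 late libraries. Of the 18 reticular stroma markers, which include Ebf3 and Lepr, 14 were higher and 2 lower in late (median 0.95; 15 and 1, median 1.06, without the ML1 late libraries), 10 higher and 0 lower in early ch+ (0.72), and 2 higher and 0 lower in early ch- (0.39). Their summed log2 level had a lowest, median and highest value of 16.38, 16.86 and 17.18 in early ch-, and 17.07, 17.23 and 17.47 in early ch+. In late it was 17.47, 17.56 and 17.70 with HL60 and 17.51, 17.59 and 17.73 with ML1. Both early ch+ and late lay above all ctrl libraries. Of the 5 tested mature adipocyte markers 0 were higher in any comparison against ctrl, and 2 were lower in late and 1 in early ch+, with medians of -0.70 and -0.54. In late without the ML1 libraries limma called 0 (1 unadjusted), median -0.28. In early ch- limma called 0, with 1 unadjusted. Their summed level was 8.78, 8.91 and 9.46 in early ch-, 8.40, 8.76 and 9.12 in early ch+, 8.53, 8.90 and 9.18 in late HL60 and 8.10, 8.37 and 8.63 in late ML1.

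Osteoblast markers, 11 of 11 tested with Col1a1 the most abundant, were lower in late for 9 and higher for 1 (median -1.93), and without the ML1 late libraries lower for 8 and higher for 1 (median -0.90). Limma called 0 of them in early ch+ (1 unadjusted) and 0 in early ch- (0 unadjusted). The pooled SE holds the gap between the lines in late, so these early counts do not show that the markers were unchanged. Their summed level was 20.86, 20.99 and 21.29 in ctrl, 20.61, 20.88 and 21.05 in early ch- and 20.44, 20.51 and 20.69 in early ch+. All early ch+ sums lay below every ctrl sum. In late it was 19.22, 19.54 and 19.59 with HL60 and 16.95, 17.11 and 17.59 with ML1, so that, like Car3, it was lower with ML1. In late 10 of the 11 were called higher in HL60 than in ML1, beside 4.09% of all genes called in that comparison, Col1a1 by 2.5 and Bglap by 3.32. Of 12 chondrocyte markers 11 were tested, with Col2a1 the most abundant, and 11 were lower in late (median -3.61, and -2.77 with 11 lower without the ML1 late libraries) and 10 in early ch+ (median -3.26), while limma called 0 in early ch- (1 unadjusted). Their summed level was 16.72, 17.06 and 17.64 in ctrl, 16.16, 16.54 and 16.94 in early ch-, 15.10, 15.43 and 15.86 in early ch+, 14.19, 14.61 and 14.71 in late HL60 and 12.22, 12.41 and 12.74 in late ML1. The part of these cells in the values of Car3, Adipoq and the other genes was not tested.

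Skeletal muscle markers, which bear on Car3 because muscle expresses it, were 8 tested of 15, with Ttn the most abundant. They were higher for 7 in early ch+ (median 2.13) and 2 in early ch- (1.61) and lower for 2 in late (1 without the ML1 late libraries). Their summed level was 8.03, 8.11 and 8.29 in ctrl, 8.47, 9.15 and 9.85 in early ch-, 8.62, 9.46 and 10.06 in early ch+ and 6.79, 7.14 and 7.55 in late. Of 12 smooth muscle and pericyte markers (Rgs5 the most abundant) 2 were higher and 6 lower in late (2 and 5 without the ML1 late libraries) and 8 lower in early ch+, and limma called 0 in early ch- (3 unadjusted). Their summed level was 14.33, 14.71 and 15.17 in ctrl, 13.93, 14.36 and 14.69 in early ch-, 13.26, 13.32 and 13.51 in early ch+ and 14.03, 14.15 and 14.21 in late. Endothelial markers (12 tested of 16, Rgcc the most abundant) had 1 higher and 3 lower in late (1 and 1 without the ML1 late libraries), 1 higher and 1 lower in early ch+, and 1 lower in early ch-. They summed to 10.38, 10.44 and 10.53 in ctrl, 9.76, 10.09 and 10.48 in early ch-, 10.86, 10.99 and 11.34 in early ch+ and 9.80, 10.04 and 10.34 in late.

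Myeloid and erythroid markers rose in the early groups. Of 13 tested myeloid markers (of 16 listed, Lyz2 the most abundant) 11 were higher in early ch+ (median 3.00) and 10 in early ch- (2.77), and 1 was higher and 3 lower in late (0 and 1 without the ML1 late libraries). Their summed level was 8.39, 9.17 and 9.53 in ctrl, 10.87, 11.21 and 12.04 in early ch-, 10.55, 11.42 and 11.84 in early ch+ and 7.98, 8.58 and 8.97 in late. Of 12 tested erythroid markers (of 14 listed, Hbb-bs the most abundant) 10 were higher in early ch+ (median 2.55) and 9 in early ch- (2.65), and 5 were lower in late, with or without the ML1 late libraries. They summed to 8.94, 9.22 and 10.00 in ctrl, 12.42, 12.99 and 13.39 in early ch-, 12.21, 13.13 and 13.72 in early ch+ and 7.67, 8.19 and 8.32 in late. Cebpa and Cebpb are expressed by myeloid cells too. Of 3 tested macrophage markers (of 12 listed, Mertk the most abundant), which matter for Fabp4 and Cd36, limma called 0 in either early group (0 unadjusted in each) and 2 lower in late (0 without the ML1 late libraries, 0 unadjusted). They summed to 8.96, 9.35 and 9.42 in ctrl, 8.71, 8.99 and 9.55 in early ch-, 8.36, 8.79 and 9.73 in early ch+ and 7.91, 8.35 and 8.92 in late. Of 2 tested megakaryocyte and platelet markers (of 8 listed, Ppbp the most abundant) limma called 0 against ctrl in any group (0 unadjusted), with sums of 4.97, 5.46 and 5.73 in ctrl, 5.13, 5.69 and 6.42 in early ch-, 5.17, 5.55 and 6.33 in early ch+ and 4.92, 5.09 and 5.24 in late. The 4 sort marker genes (Nes the most abundant) had 2 higher in early ch+, 1 in early ch- and 0 in late (1 unadjusted), with sums of 7.62, 7.96 and 8.01 in ctrl, 7.80, 8.25 and 8.49 in early ch-, 7.90, 8.26 and 8.54 in early ch+ and 7.28, 7.66 and 8.07 in late. The part of these cells in the results was not tested.

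**Figure D3:**
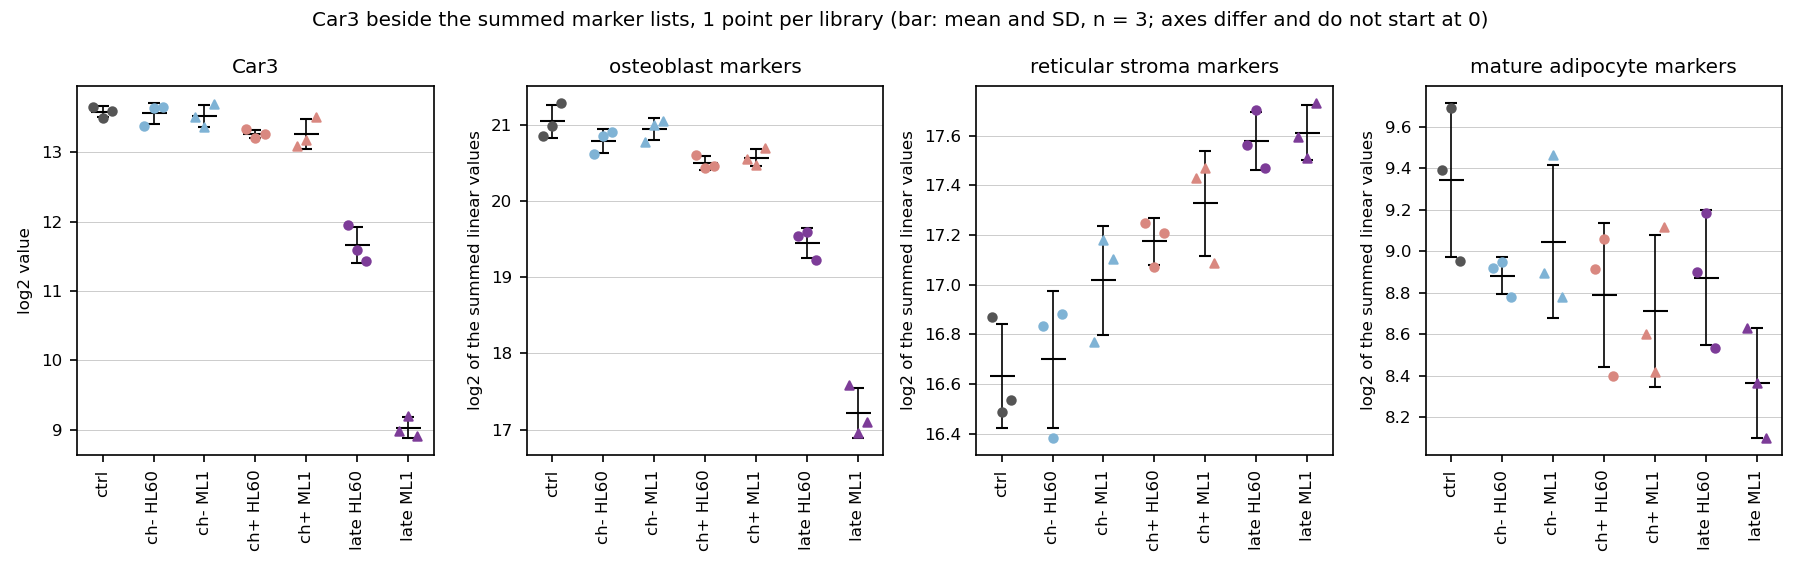
Log2 value of Car3 and summed log2 level of osteoblast, reticular stroma and mature adipocyte markers (vertical axes, bars are mean and SD) in each library by group (horizontal axis). Car3 and the osteoblast sum are lowest in late ML1 (8.91 to 9.20 and 16.95 to 17.59), while the reticular stroma sum is above ctrl in all early ch+ and all late libraries.

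Promoter sequence, the 250 bases before a gene's start in RefSeq (build GRCm38.p6), was at hand for 7 of the 10 genes, with 9 promoters in all, and not for Lpl, Fabp4 and Car3. Printed are the plus-strand promoters of Pparg, Cebpa and Adipoq, picked because limma called these genes higher in early ch+ against ctrl. The Cebpa call (adjusted p = 0.0734) was lost in several of the fits above, and Pparg was called higher in early ch- too. Capitals mark matches on either strand to TTGCNNAA (a C/EBP-like element, in 9.57% of all promoters of that length), CCAAT (33.9%), TATAAA (12.4%) and AGGTCA (a nuclear receptor half-site, 14%), and no matches overlapped. The Pparg promoters at chr6:115360894-115361143, chr6:115362099-115362348 and chr6:115421816-115422065 are numbered in that order, that of Cebpa is at chr7:35119043-35119292 and that of Adipoq at chr16:23146286-23146535.
Pparg promoter 1: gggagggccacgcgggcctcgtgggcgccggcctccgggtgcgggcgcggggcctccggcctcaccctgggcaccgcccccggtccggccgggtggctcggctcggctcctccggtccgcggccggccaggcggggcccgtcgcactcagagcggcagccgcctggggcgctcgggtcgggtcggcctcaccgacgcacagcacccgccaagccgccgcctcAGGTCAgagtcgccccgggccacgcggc
Pparg promoter 2: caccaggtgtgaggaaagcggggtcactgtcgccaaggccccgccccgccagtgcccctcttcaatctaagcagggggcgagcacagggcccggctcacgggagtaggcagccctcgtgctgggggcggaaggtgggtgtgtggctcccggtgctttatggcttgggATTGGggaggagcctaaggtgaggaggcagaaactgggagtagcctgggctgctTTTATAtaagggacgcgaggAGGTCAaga
Pparg promoter 3: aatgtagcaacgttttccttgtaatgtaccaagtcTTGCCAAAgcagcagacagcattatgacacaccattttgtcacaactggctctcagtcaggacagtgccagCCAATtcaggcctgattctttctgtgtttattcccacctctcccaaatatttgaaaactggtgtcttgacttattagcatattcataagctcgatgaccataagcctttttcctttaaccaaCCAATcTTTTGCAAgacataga
Cebpa: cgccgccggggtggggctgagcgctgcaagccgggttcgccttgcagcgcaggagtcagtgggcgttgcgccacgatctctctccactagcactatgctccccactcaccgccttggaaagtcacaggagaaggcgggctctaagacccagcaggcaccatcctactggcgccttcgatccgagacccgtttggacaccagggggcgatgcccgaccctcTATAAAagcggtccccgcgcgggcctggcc
Adipoq: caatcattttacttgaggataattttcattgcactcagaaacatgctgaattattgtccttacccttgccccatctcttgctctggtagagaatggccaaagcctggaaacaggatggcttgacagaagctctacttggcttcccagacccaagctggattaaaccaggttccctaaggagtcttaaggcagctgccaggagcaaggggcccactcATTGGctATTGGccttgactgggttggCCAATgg
The first Pparg promoter holds 1 AGGTCA, the second 1 CCAAT, 1 TATAAA and 1 AGGTCA, and the third 2 TTGCNNAA and 2 CCAAT. The Cebpa promoter holds 1 TATAAA and that of Adipoq 3 CCAAT. The matches are a description of these letters and no evidence of binding.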

How the data were processed

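RNA sequencing libraries of sorted Nes-low cells were used (21 of the series). Per the labels, the authors aligned reads with STAR 2.5.1b, counted them with RSEM 1.2.29 and made the deposited regularized log2 values with DESeq2 (1.10.1). They were read as log2 because of their range, although the methods speak of log10. Groups follow titles and time points. Genes with a mean of at least log2 of 10 were fitted with limma 3.58.1 in R 4.3.3 (mean-variance trend, Benjamini-Hochberg), as 4 groups and as 7 groups with the lines apart. Figures used matplotlib 3.10.9 under Python 3.11.15, and positions are from GENCODE M21. The 10 genes, the pathway lists and the marker lists were chosen with earlier results of these data known. In a pathway list the called genes with the largest changes, up to 3 in each direction, were named, in a marker list the most abundant gene (called markers as counts), and for Adipoq the 5 genes nearest in profile and the nearest of the 10. Added after the data were seen were the neighbours of Car3, leaving out ML1 late, the sum without its 10 highest genes, rescaling and leaving out libraries within lines, and fits of a line alone.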

Additional observations from a re-analysis of the deposited data

Results flagged for a closer look

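Lpl in early ch- replicate 528 (HL60) was 12.45 on the log2 scale, and the nearest of the other 5 libraries of early ch- was 13.20. This gap is 0.743 of the range of the group, above Dixon's critical value at 95% for 6 libraries. It was 1 of 30 groups of values looked at, and chance gives about 1 such library in 20 groups. Without this library Lpl in early ch- against ctrl was 0.70 and called, and with it 0.55 and not called. The cause was not tested.

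Car3 in late differed between the lines by 2.63 (log2, HL60 minus ML1, SE 0.14, adjusted p = 2.38e-14 by limma, 3 of 3 HL60 libraries above every ML1 library). Against ctrl the late value was -1.92 with HL60 and -4.55 with ML1. The ML1 late libraries are those whose treatment label contradicts their title. The cause was not tested.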

How the results depend on the processing

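Leaving aside single libraries, 178 counts of genes were recomputed under other choices, of which 142 moved by less than 1.5 times, 23 rose and 13 fell beyond it. Of 1061 log2 fold changes of single genes 927 kept their direction and their side of the threshold, 40 gained a call, 62 lost it and 32 changed sign. Chosen after the data were seen were leaving out the ML1 late libraries (for single genes and lists), fits of ctrl with a line alone for the comparisons between stages, the sum without its 10 highest genes, and, within the lines, rescaling and leaving out single libraries. Shares in brackets are of all genes tested in the same fit. No paired analysis was made, since ch+ and ch- share no replicate number and the labels name no mouse. Sequencing depth per library is unknown, and regularization narrows differences of low genes, Plin1 and Cfd among them. Some alternatives bring fewer libraries, fewer tested genes or an SE without the gap between the lines in late. Beyond that the cause was not tested.

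Without a filter late against early ch- had 4515 genes called (16.8%) and 1 of the 10 genes, all 10 then tested. In the other fits 8 of the 10 were tested. With the filter at a mean of 5, early ch+ against early ch- had 1 of 8 (7.12%). Quantile normalization turned Cd36 in early ch- against ctrl to -0.013 and Fabp4 in late against early ch+ to 0.0135. Without the mean-variance trend late against early ch- had 1 of 8 (21.3%). Sample weights turned Adipoq in late against ctrl to -0.021, gave 156 genes in early ch- against ctrl and 4 of 8 in late against early ch- (26.3%). Fitting the compared groups alone gave 2 of 8 in early ch+ against early ch- (6.67%). With 7 groups averaged over the lines there were 2 of 8 in early ch- against ctrl (2.72%) and 2 of 8 in early ch+ against early ch- (7.72%). At an adjusted p under 0.05 there were 512 genes in early ch+ and 156 in early ch- against ctrl, 2 of 8 in late against early ch+ (15.5%) and 1 of 8 in late against early ch- (17.9%).

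Rescaling to the mean total gave 8302 genes (64%) and 6 of 8 in late against ctrl, with Fabp4 at 0.45, Cd36 at 0.16 and Irs1 at 0.16. In early ch- against ctrl Fabp4 was -0.017 and Cd36 -0.048, and early ch+ against early ch- had 1 of 8 (8.25%). Late against early ch+ had 9031 genes, with Lpl at 0.21, Fabp4 at 0.60 and Cd36 at 0.38. Late against early ch- had 10161 genes (78.3%) and 6 of 8, with Adipoq at 0.24, Lpl at 0.59, Fabp4 at 0.47 and Cd36 at 0.21. With HL60 alone, rescaled, late against ctrl had 5527 genes (42.6%), 6 of 8 and Cd36 at 0.0365, Cebpb in early ch+ was 0.093, Cd36 in early ch+ against early ch- was 0.018, and late against early ch+ had 3913 genes (30.2%), 4 of 8, Lpl at 0.20, Fabp4 at 0.35 and Cd36 at 0.35. With ML1 alone late against ctrl had 8781 genes (67.7%), 6 of 8, Adipoq at 0.55, Fabp4 at 0.33 and Cd36 at 0.29, early ch- had 1 of 8 (2.6%), and late against early ch+ had 8311 genes (64%), 6 of 8, Lpl at 0.21 and Cd36 at 0.41. HL60 against ML1, Pparg was -0.16 in late and 0.028 in early ch+. Rescaled to the sum without its 10 highest genes, early ch- against ctrl had 2 of 8 (2.4%), with Car3 at 0.0235, early ch+ against early ch- had 1 of 8 (6.2%), and Fabp4 in late against early ch+ was 0.0256.

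Without the ML1 late libraries late against ctrl had 1613 genes (12.4%) and Fabp4 at 0.0071, early ch+ against early ch- had 2 of 8 (6.95%), late against early ch+ had 1475 genes (11.4%), 2 of 8 and Fabp4 at 0.23, and late against early ch- had 1690 genes (13%) and 1 of 8.

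Leaving out each library in turn, 241 of 282 counts moved by less than 1.5 times, and 1232 of 1416 fold changes kept direction and side, 18 gained a call, 83 lost it and 83 changed sign. Counts that moved beyond 1.5 times ranged, for genes and for the 8 tested of the 10 genes, over 136 to 280 and 1 to 2 in early ch- against ctrl, 0 to 1 of the 8 in early ch+ against early ch-, 2 to 5 in late against early ch+ and 1 to 3 in late against early ch-. With HL60 they ranged over 106 to 201 genes and 0 to 2 of the 8 in early ch-, 295 to 459 genes and 0 to 1 in early ch+ against early ch-, and 1 to 2 of the 8 in late against early ch+. With ML1 early ch- ranged over 180 to 302 genes and 1 to 3 of the 8. HL60 against ML1 ranged over 0 to 6 genes in early ch+ and 0 to 9 in early ch-. The libraries behind the lowest gene counts were ctrl replicates 374 and 375 (136 in early ch-), ch- replicate 529 (106) and ctrl replicate 374 (127) with HL60, ctrl replicate 374 (180) and ch- replicate 544 (181) with ML1, and ch- replicate 528 (295) in HL60 early ch+ against early ch-. Over the fits behind these counts, all genes called made up 1.05% to 2.16% in early ch- against ctrl, 5.21% to 6.33% in early ch+ against early ch-, 16.9% to 19% in late against early ch+ and 19.3% to 22% in late against early ch-. With HL60 they made up 0.817% to 1.55% in early ch- against ctrl, 2.27% to 3.54% in early ch+ against early ch- and 7.28% to 8.95% in late against early ch+, and with ML1 1.39% to 2.33% in early ch- against ctrl.

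Fold changes that changed sign ranged as follows. Against ctrl in the pooled libraries, Adipoq in late ranged from -0.12 to 0.25, Cebpb in early ch+ from -0.45 to 0.23 and in early ch- from -0.0335 to 0.64, Cd36 in early ch- from -0.14 to 0.20 and Fabp4 in early ch- from -0.027 to 0.19. Cebpa in early ch+ against early ch- ranged from -0.10 to 0.21 and Fabp4 in late against early ch+ from -0.15 to 0.17. With HL60 against ctrl, Car3 in early ch- ranged from -0.072 to 0.065, Cebpb in early ch+ from -0.32 to 0.36 and in early ch- from -0.086 to 0.59, and Fabp4 in early ch+ from -0.031 to 0.25, in early ch- from -0.47 to 0.074 and in late from -0.20 to 0.26. With HL60 in early ch+ against early ch-, Cd36 ranged from -0.30 to 0.11, Cebpa from -0.25 to 0.39, Lpl from -0.11 to 0.40 and Pparg from -0.0019 to 0.51. With HL60 in late against early ch+, Cd36 ranged from -0.405 to 0.13 and Fabp4 from -0.33 to 0.13. With ML1, Car3 in early ch- ranged from -0.15 to 0.0186, Cd36 in early ch+ from -0.41 to 0.0935 and Cebpb in early ch+ from -0.58 to 0.0931. Cebpa in ML1 early ch+ against early ch- ranged from -0.26 to 0.45 and Pparg from -0.10 to 0.50, and in ML1 late against early ch+ Fabp4 ranged from -0.10 to 0.44 and Pparg from -0.10 to 0.51. HL60 against ML1 in early ch+, Adipoq ranged from -0.11 to 0.27, Car3 from -0.079 to 0.13, Cd36 from -0.50 to 0.0007, Cebpa from -0.24 to 0.32 and Pparg from -0.37 to 0.23. In early ch- Car3 ranged from -0.042 to 0.125, Cebpa from -0.30 to 0.46, Lpl from -0.43 to 0.057 and Pparg from -0.34 to 0.13, and in late Cd36 from -0.29 to 0.25, Lpl from -0.11 to 0.059 and Pparg from -0.031 to 0.24. None of these values was called with all libraries.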
